A study of Mus musculus with 5 samples.

Results

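The 10 genes described here make up the core of MHC class I antigen presentation and were chosen by name for their roles: B2m, H2-K1, H2-D1, Tap1, Tap2, Tapbp, Psmb8, Psmb9, Psmb10 and Nlrc5. All 10 were found by their symbol among the 55487 gene identifiers of the count table, and all 10 were among the 14423 genes that passed the filter on low counts. MHC class I molecules carry peptides from inside the cell to its surface, where T cells and natural killer cells read them. Proteasomes cut cytosolic proteins into peptides, the TAP transporter moves these peptides into the endoplasmic reticulum, and a loading complex places them on a heavy chain paired with beta-2-microglobulin. Interferons raise most genes of this pathway through JAK kinases, and blood cells express them without stimulation too.

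RNA was sequenced from common lymphoid progenitors (CLPs), precursors of B, T and natural killer cells that were sorted from mouse bone marrow as Lin-CD127+Flt3+ cells. The 3 SF1 libraries came from SclCre;JAK2-V617F mice, in which a Cre recombinase driven by the Scl gene accompanies the mutant kinase of myeloproliferative neoplasms, and the 2 WT libraries from wild-type mice. Marrow of both genotypes was taken 16 weeks after tamoxifen. Strain, sex, age, and whether a library holds 1 animal or a pool are not given, so the spread behind each p-value is that between the libraries and may be technical. The design compares gene expression in CLPs between these genotypes. No group is labelled as carrying the Cre alone, so the kinase mutation and the Cre cannot be told apart.

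The SF1 libraries held 9350767, 11290082 and 10730820 counts and the WT libraries 20424296 and 8894288. Levels are CPM, the count per library total on a common scale after TMM scaling in edgeR, where a count of 1 stood for at most 0.114 CPM; every member had at least 980 counts in each library. The sort genes Flt3 and Il7r were at 1594 to 1700.0 and 421 to 465 CPM in SF1 libraries and at 1511 to 1514 and 331 to 371 CPM in WT libraries, so the genes of both sort markers were expressed in all 5. By the edgeR quasi-likelihood test Il7r was higher in SF1 (log2 fold change 0.32, adjusted p = 0.0318) and Flt3 did not pass (0.12, 0.233). After a correction for GC content and length Flt3 passed (0.23, 0.0392) and Il7r did not (0.28, 0.0691). Of 10 CLP and sort genes 3 were higher and 2 lower. By the same edgeR test, as counted, 6.77% of all 14423 genes were higher and 9.74% lower. The counts for each list stand beside these shares. Jak2 was at 63.3 to 68.1 CPM in SF1 cells and at 58.4 and 35.4 CPM in WT cells (log2 fold change 0.48, adjusted p = 0.104, edgeR quasi-likelihood test), and counts per gene cannot show the mutation. Its log2 fold change was 0.91 without WT replicate 1, where it passed (adjusted p = 0.00685), and 0.18 without WT replicate 2 (0.409). Of the marker lists for other cells, 13 of 14 for neutrophils and monocytes rose in SF1, with summed levels of 2459 to 6285 CPM in SF1 cells and 1107 to 1426 CPM in WT. Of 12 dendritic cell genes that could be tested 7 were higher (3624 to 4251 CPM in SF1, 2671 to 2834 CPM in WT), and Klk1 had no count in SF1 and Cd209d none in WT. This list holds Irf8, whose levels are given below. It shares Ccr9 and the sort gene Flt3 with the list of CLP genes, and Ly6c2 with that of neutrophils and monocytes. Its sums are therefore not a level of dendritic cells. Flt3 alone gave 1594 to 1700.0 CPM of them in SF1 and 1511 to 1514 CPM in WT. Of 8 genes of mature B and plasma cells 3 rose and 1 fell (1042 to 1304 CPM in SF1, 739 to 778 CPM in WT), and of 5 natural killer and T cell genes 1 was higher (187 to 207 CPM in SF1, 176 to 179 CPM in WT). Of 9 macrophage genes 1 was higher and 5 were lower, with a median log2 fold change of -1.56, while their sums overlapped (32.2 to 54.9 CPM in SF1, 42.1 to 53.2 CPM in WT). Of 7 erythroid genes 5 were lower (5.78 to 7.90 CPM in SF1, 49.3 to 71.4 CPM in WT). No count in SF1 was given to the T cell gene Cd3e, the natural killer gene Ncr1, the macrophage genes Cd5l and Mertk or the erythroid gene Hba-a2, and none in WT to Cd3g, Eomes and Tbx21. In bulk RNA, a smaller share of cells that express a gene and less RNA per cell cannot be told apart. The part of these other cells in the values below was not tested.

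Of the 10 genes, Tap1 and Tap2, which encode both chains of the peptide transporter, fell in SF1, and the other 8 did not pass the test. The share called was 20%, against 16.5% of all 14423 genes tested (adjusted p under 0.05; here and below from edgeR's quasi-likelihood test, adjusted after Benjamini and Hochberg over all genes), so the number of calls was near the background. None was higher by edgeR or DESeq2, against 6.77% of all genes (1, Psmb10, at an unadjusted p under 0.05), and the 2 lower genes compare with 9.74% of all genes. Over all genes 977 were higher and 1405 lower, against 1186 higher and 1155 lower with library totals in place of TMM and 1064 higher and 1090 lower after a correction for GC content and length. The median log2 fold change of the 10 was -0.05, beside 0.02 over all genes tested. SF1 and WT libraries did not overlap for 5 of the 10 genes, where 49% of all genes were separated in that way. Of these, 4 were lower in SF1 (24.2% of all genes) and 1 was higher (24.8% of all genes).

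**Figure D1:**
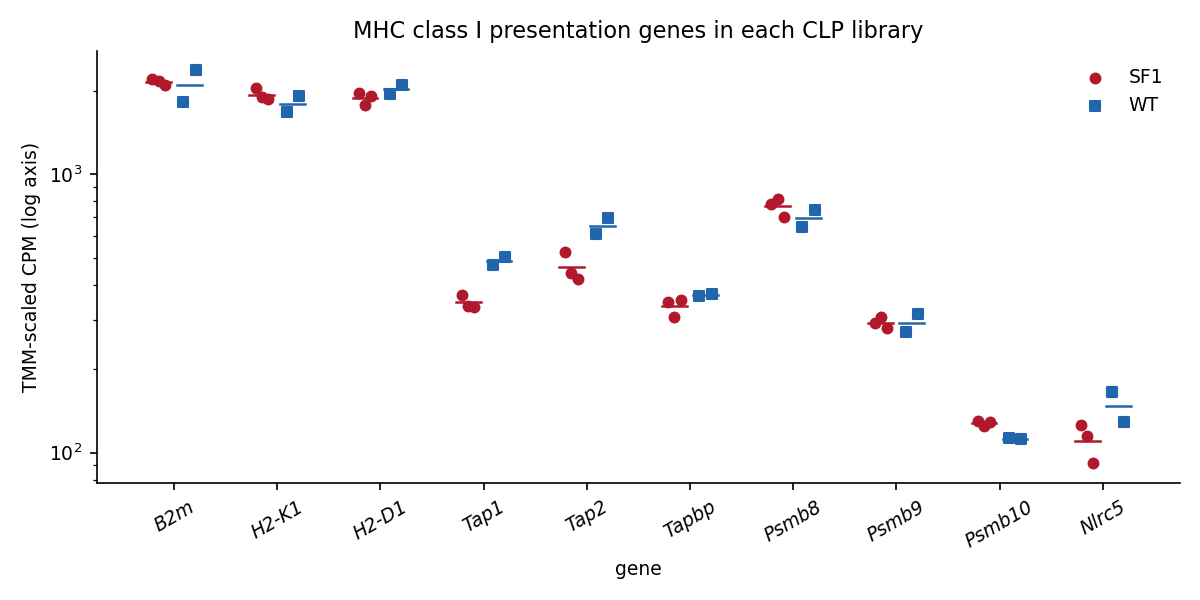
TMM-scaled CPM (log axis) of the 10 genes in the 3 SF1 libraries (circles) and the 2 WT libraries (squares), with the mean of each group as a line. Tap1 and Tap2 lay lower in every SF1 library than in either WT library, while B2m, H2-K1, H2-D1, Psmb8 and Psmb9 overlapped.

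The light chain and the heavy chains of class I were among the most abundant RNAs of these cells, and no difference between genotypes was detected in them. B2m encodes beta-2-microglobulin, the invariant light chain (ENSMUSG00000060802, GRCm38 chromosome 2, 122147686 to 122153083, plus strand). It was at 2207, 2157 and 2098 CPM in SF1 replicates 1, 2 and 3 and at 1821 and 2364 CPM in WT replicates 1 and 2, and by mean level it ranked 7 of the 14423 genes. The SF1 libraries lay between the WT libraries, with a log2 fold change of 0.04 (SE 0.10, 95% interval -0.19 to 0.27, adjusted p = 0.818). Without WT replicate 1 the estimate was -0.14.

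H2-K1 and H2-D1 encode the classical heavy chains that hold the peptide. H2-K1 (ENSMUSG00000061232, chromosome 17, 33996017 to 34000347, minus strand) was at 2051, 1895 and 1864 CPM in SF1 cells and 1674 and 1920.4 CPM in WT cells (log2 fold change 0.11, SE 0.08, 95% interval -0.07 to 0.29, adjusted p = 0.392). H2-D1 (ENSMUSG00000073411, chromosome 17, 35262730 to 35267499, plus strand) was at 1955, 1778 and 1910.2 CPM in SF1 cells and 1952 and 2099 CPM in WT cells (log2 fold change -0.11, SE 0.07, 95% interval -0.26 to 0.05, adjusted p = 0.332). The groups overlapped for both genes. The count of H2-K1 divided by that of H2-D1 was 1.05, 1.07 and 0.976 in SF1 and 0.858 and 0.915 in WT, so each SF1 library had relatively more H2-K1 than either WT library. This ratio was chosen after the values were seen and is given without a test. The heavy chains are close copies of each other: their principal mRNAs matched at 88.5% of 1515 aligned bases, and 8.79% of the 50-base stretches of the H2-K1 mRNA and 14.3% of those of the H2-D1 mRNA also occurred in transcripts of other genes, mostly of the H2 family. Their separate values are therefore uncertain where reads match several of them, and the alleles of the mice, which differ between strains, are not known.

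The promoters of the heavy chain genes and of B2m are shown because these 3 genes ran at like, high levels in both genotypes. Sequences are RefSeq windows of build GRCm38.p6 from 250 bases before to 50 bases after the start, read 5′ to 3′ on the gene's strand: chr17:34000298-34000597 (minus strand) for H2-K1, chr17:35262844-35263143 (plus strand) for H2-D1 and chr2:122147437-122147736 (plus strand) for B2m. Capitals mark matches, on either strand, to these motifs: kappa B (GGG and TTCCC with any 2 bases between), the interferon-stimulated response element in a strict form (GAAA and GAAA with any 2 bases between) and a looser one (GAANNGAAA), the CCAAT box (CCAAT) and the core of the cyclic AMP response element (TGACG).
H2-K1: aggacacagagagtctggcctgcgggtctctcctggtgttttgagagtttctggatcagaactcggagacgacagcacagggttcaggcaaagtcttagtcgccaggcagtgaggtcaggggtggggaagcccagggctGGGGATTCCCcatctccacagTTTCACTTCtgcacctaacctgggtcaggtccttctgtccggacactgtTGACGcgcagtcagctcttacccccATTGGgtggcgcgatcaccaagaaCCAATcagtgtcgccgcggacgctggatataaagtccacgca
H2-D1: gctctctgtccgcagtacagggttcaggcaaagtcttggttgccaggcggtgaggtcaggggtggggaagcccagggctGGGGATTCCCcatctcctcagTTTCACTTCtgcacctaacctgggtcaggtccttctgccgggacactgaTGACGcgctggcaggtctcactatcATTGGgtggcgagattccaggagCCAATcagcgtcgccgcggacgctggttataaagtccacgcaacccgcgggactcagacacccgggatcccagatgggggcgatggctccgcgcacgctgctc
B2m: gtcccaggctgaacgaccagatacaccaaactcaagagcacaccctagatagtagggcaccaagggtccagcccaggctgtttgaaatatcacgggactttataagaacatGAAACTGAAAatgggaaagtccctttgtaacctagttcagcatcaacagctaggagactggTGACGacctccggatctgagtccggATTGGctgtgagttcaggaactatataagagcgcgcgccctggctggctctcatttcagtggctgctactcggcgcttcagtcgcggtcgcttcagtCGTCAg

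The H2-K1 and H2-D1 windows matched at 90.4% of 228 aligned bases and held the same motifs in the same order: kappa B, the looser interferon element, the cyclic AMP core and a pair of CCAAT boxes. A kappa B match was found in 1.75% of all 32851 promoter windows and the looser interferon element in 7.52%. The B2m window held the strict interferon element, found in 3.44% of windows, followed by the cyclic AMP core (20.8% of windows), a CCAAT box (37.4%) and a second cyclic AMP core after the start. None of the matches overlap each other. A match describes the letters in the window and shows neither binding nor use of the site in CLPs.

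The transporter genes were the members called by edgeR, each with a log2 fold change of -0.50. Tap1 (ENSMUSG00000037321, chromosome 17, 34187553 to 34197225, plus strand) was at 369.5, 336 and 334 CPM in SF1 cells and at 474 and 506 CPM in WT. Every SF1 library was below both WT libraries. The gene fell 1.41-fold (log2 fold change -0.50, SE 0.08, 95% interval -0.68 to -0.32, adjusted p = 0.00413). Tap2 (ENSMUSG00000024339, chromosome 17, 34203527 to 34216321, plus strand) was at 526, 440.3 and 422 CPM in SF1 cells and 610.1 and 695 CPM in WT. It too was below both WT libraries in each SF1 library, and fell 1.41-fold (log2 fold change -0.50, SE 0.11, 95% interval -0.73 to -0.26, adjusted p = 0.0142). The count of Tap1 divided by that of Tap2 was 0.703, 0.764 and 0.792 in SF1 and 0.776 and 0.728 in WT, so the balance between the chains overlapped between genotypes (a ratio chosen after the values were seen, without a test). The Tap2 call was lost when SF1 replicate 2 (adjusted p = 0.0666), replicate 3 of the same genotype (0.0561) or WT replicate 2 (0.0641) was left out, whereas Tap1 passed without any 1 library (adjusted p from 0.00548 to 0.0271).

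Both calls were lost after a correction for GC content and length, taken as all exonic bases of a gene. GC content moved with genotype across the whole table. The log2 fold change was then -0.27 for Tap1 (adjusted p = 0.0625) and -0.32 for Tap2 (adjusted p = 0.0766). The longest annotated transcripts have a GC content of 55.8% for Tap1 and 56.9% for Tap2, above the median of 49.3% over genes tested. Among the 2429 genes between 55% and 60% GC, 18.7% were lower and 6.18% higher in SF1, and among the 1031 genes up to 40% GC, 2.52% were lower and 7.08% higher. Among the members of like GC content, the correction moved the log2 fold change by 0.23 for Tap1, 0.17 for Tap2, 0.17 for Tapbp (57.1%), 0.01 for H2-D1 (55.9%) and -0.06 for Psmb10 (56.5%). In the same order these genes have 5476, 3781, 3628, 2579 and 1705 exonic bases, so the move differed with length at like GC content. The correction moved Nlrc5 (52.6%) by 0.20 and B2m (41.2%) by -0.17. The parts of GC content and of length in the transporter values were not separated or tested further.

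**Figure D2:**
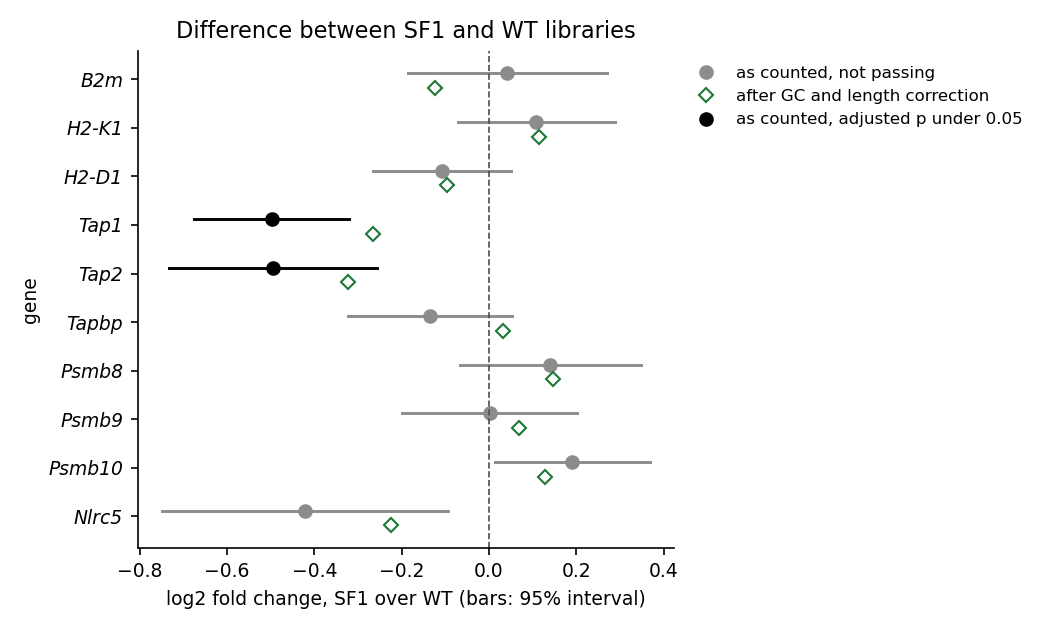
Log2 fold change of SF1 over WT for each gene as counted (circles, with 95% intervals, black where the adjusted p was under 0.05) and after correction for GC content and length (open diamonds). Tap1 and Tap2 stood at -0.50 as counted and at -0.27 and -0.32 after correction.

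Tap1 and Tap2 alternate along chromosome 17 with the immunoproteasome genes Psmb9 and Psmb8, within 34.3 kb (34181987 to 34216321). By their RefSeq starts Psmb9 and Tap1 begin 226 bases apart on opposite strands, and their promoter windows share 275 of 300 bases. In GENCODE M21, which gave the places of the genes, Psmb9 reaches 0.21 kb past the Tap1 start, so its outermost start lies inside Tap1. The count of Tap1 divided by that of Psmb9 was 1.27, 1.09 and 1.195 in SF1 and 1.74 and 1.61 in WT. Likewise Tap2 divided by its neighbour Psmb8 was 0.672, 0.540 and 0.602 in SF1 and 0.941 and 0.936 in WT. Both ratios were lower in each SF1 library than in either WT library, and neither depends on how libraries are scaled to each other. They were chosen after the values were seen and carry no test. The window is shown because it spans the RefSeq starts of both genes: chr17:34187306-34187605 (plus strand, read toward Tap1), with capitals as above.
Tap1: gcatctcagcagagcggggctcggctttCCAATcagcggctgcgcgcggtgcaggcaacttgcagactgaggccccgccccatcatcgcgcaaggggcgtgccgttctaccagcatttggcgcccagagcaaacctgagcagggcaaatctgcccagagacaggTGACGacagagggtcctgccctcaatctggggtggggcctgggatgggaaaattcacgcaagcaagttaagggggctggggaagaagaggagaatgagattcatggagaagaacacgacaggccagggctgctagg

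This window held a CCAAT box near the RefSeq start of Psmb9 and the cyclic AMP core nearer to the Tap1 start. It held no letters of the interferon elements or kappa B as searched. The absence of these letters says nothing about sites outside the window or of other spelling. Between H2-K1 and H2-D1, 57 other genes were tested that are neither H2 genes nor on a pathway list. Of these 1 was higher, 9 were lower and 47 did not pass, with a median log2 fold change of -0.02. The share called was 17.5%, against 16.5% of all genes, of which 6.77% were higher and 9.74% lower. The 57 include Gm20496 and Gm15821, whose exons overlap those of members as given below, and Gm15821 is among the 9 lower.

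**Figure D3:**
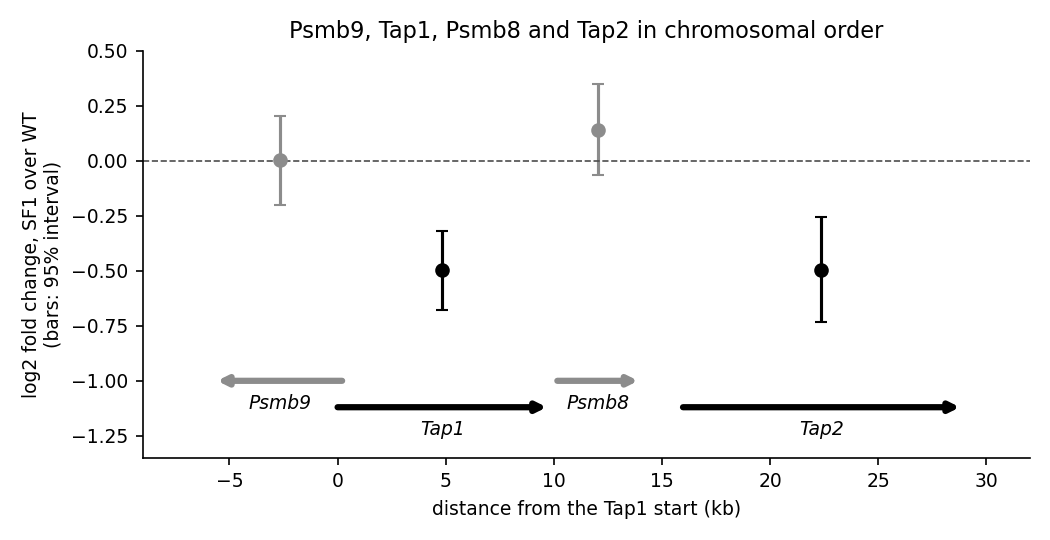
Log2 fold change of SF1 over WT, with 95% intervals, for the 4 genes in their chromosomal order; arrows show each gene's extent and direction by distance from the Tap1 start in kb. Tap1 and Tap2 (black) stood at -0.50, and Psmb9 and Psmb8 (grey) at 0.00 and 0.14.

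Overlapping annotation limits how exactly these neighbours can be separated, since the protocol does not mark the strand. In GENCODE M21, Tap1 and Psmb9 exons overlap by 212 bases. The antisense RNA gene Gm20496 has 663 exonic bases in GENCODE M21, and 100% of them lie in exons of Psmb8 or Tap2 on the other strand. It was nevertheless given 2925, 3862 and 3061 counts in SF1 and 5332 and 2748 counts in WT (log2 fold change 0.10, adjusted p = 0.566). Gm15821, a long noncoding RNA gene on the other strand with 44% of its exonic bases in Tap2 exons, was at 128, 126 and 115 CPM in SF1 cells and 153 and 174 CPM in WT cells (log2 fold change -0.41, adjusted p = 0.0178). Whether such reads were also counted for Psmb8 or Tap2 is not stated in the processing notes.

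Tapbp encodes tapasin, which bridges the transporter and the heavy chain and edits the bound peptide (ENSMUSG00000024308, chromosome 17, 33915899 to 33929292, plus strand). It was at 347, 308 and 354 CPM in SF1 cells and at 366 and 372 CPM in WT. The SF1 libraries were all lower, but the difference did not pass (log2 fold change -0.14, SE 0.08, 95% interval -0.32 to 0.05, adjusted p = 0.302). After GC and length correction its estimate was 0.03. Of its exonic bases 29% overlap other annotated genes, above the share of any other member.

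The immunoproteasome genes, whose products replace the constitutive catalytic subunits, were not detectably changed. Psmb8 (ENSMUSG00000024338, chromosome 17, 34197721 to 34201454, plus strand), which encodes the chymotrypsin-like subunit LMP7, was at 782, 816 and 701 CPM in SF1 cells and 648 and 743 CPM in WT cells (log2 fold change 0.14, SE 0.09, 95% interval -0.07 to 0.35, adjusted p = 0.326). Psmb9 (ENSMUSG00000096727, chromosome 17, 34181987 to 34187764, minus strand), which encodes LMP2, was at 292, 308 and 279.9 CPM in SF1 cells and 272 and 315 CPM in WT, so that its log2 fold change was 0.00 (SE 0.09, 95% interval -0.20 to 0.20, adjusted p = 0.993). Psmb10 (ENSMUSG00000031897, chromosome 8, 105935735 to 105938444, minus strand), which encodes MECL-1, was at 130.1, 125 and 129 CPM in SF1 cells and 113 and 112 CPM in WT. Each SF1 library was higher, with a log2 fold change of 0.19 (SE 0.08, 95% interval 0.01 to 0.37), which did not pass over all genes (adjusted p = 0.132). Their constitutive counterparts Psmb5, Psmb6 and Psmb7 did not pass either (log2 fold changes 0.03, 0.17 and 0.09, adjusted p = 0.899, 0.174 and 0.546).

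Within each library the immune subunit was set against its constitutive counterpart per kilobase of principal mRNA. Psmb8 stood 8.52, 7.43 and 6.44 times above Psmb5 in SF1 and 6.67 and 6.97 times above it in WT, so the chymotrypsin-like pair was mostly of the immune form at the RNA level in both genotypes. Psmb10 over Psmb7 was 1.18, 1.17 and 1.28 in SF1 and 1.19 and 1.07 in WT. Psmb9 over Psmb6 was 0.615, 0.634 and 0.572 in SF1 and 0.659 and 0.701 in WT, lower in each SF1 library. The difference in mean log2 ratio, SF1 minus WT, was 0.12 for Psmb8, 0.10 for Psmb10 and -0.16 for Psmb9. By the two-sided exact permutation test over the 5 libraries the p-values were 0.5, 0.5 and 0.1 (0.5, 0.5 and 0.3 adjusted over these 3 ratios). With 3 against 2 libraries 0.1 is the smallest p this test can give.

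**Figure D4:**
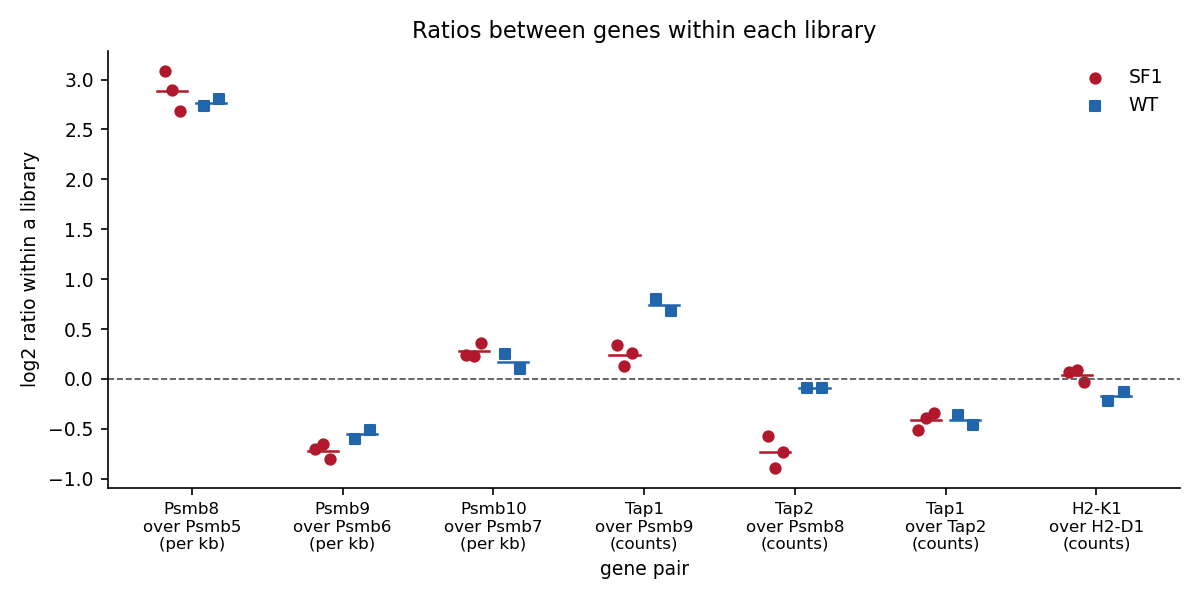
Log2 ratio between gene pairs within each SF1 library (circles) and WT library (squares), with group means as lines; immune over constitutive subunits are per kb of mRNA and the other pairs are ratios of counts. The Tap1 over Psmb9 and Tap2 over Psmb8 ratios were lower in all SF1 libraries, while Tap1 over Tap2 overlapped.

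Nlrc5 encodes the transactivator that drives class I genes in lymphoid cells (ENSMUSG00000074151, chromosome 8, 94434356 to 94527272, plus strand). It was at 125, 114 and 91.5 CPM in SF1 cells and at 166 and 129 CPM in WT, each SF1 library below both WT libraries. The log2 fold change of -0.42 (SE 0.15, 95% interval -0.75 to -0.09) did not pass over all genes (adjusted p = 0.0802). It passed as lower by DESeq2 (adjusted p = 0.0397), when low counts were kept (0.000297) and without WT replicate 2 (log2 fold change -0.59, adjusted p = 0.0364), and without WT replicate 1 its log2 fold change was -0.23. After GC and length correction it was -0.22 (adjusted p = 0.292).

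Per kilobase of principal mRNA the order of levels was the same in both genotypes for the most abundant genes. The order depends on the length used and can differ with all exonic bases. H2-K1 has 1619 bases of principal mRNA and 2938 exonic bases, H2-D1 2102 and 2579, and Psmb9 1352 and 3660. B2m led with 2505 ± 63.6 CPM per kb in SF1 and 2433 ± 447 in WT (SD, n = 3 and 2), followed by H2-K1 with 1196 ± 62.0 in SF1 and 1110.1 ± 108 in WT and by H2-D1 with 895 ± 43.8 in SF1 and 964 ± 49.7 in WT. Psmb8 came next with 471 ± 36.2 in SF1 and 427 ± 41.3 in WT, and Psmb9 with 217 ± 10.5 in SF1 and 217 ± 22.5 in WT. Below them in SF1 lay Tap2 (134 ± 16.02), Tap1 (117 ± 6.69) and Tapbp (116 ± 8.54), whose libraries overlapped between neighbours. In WT, Tap2 (189.6 ± 17.5) overlapped with Psmb9, while Tap1 (166 ± 7.80) and Tapbp (127 ± 1.64) each stood apart. Psmb10 followed with 97.7 ± 2.14 in SF1 and 85.6 ± 0.596 in WT, and the regulator Nlrc5 was lowest with 14.6 ± 2.28 in SF1 and 19.4 ± 3.42 in WT. Heavy chain RNA per kb was thus above the RNA of each loading and transport gene in every library.

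The calls in this and the following lists stand beside 6.77% of all genes higher and 9.74% lower. Of 18 other class I heavy chains and class I-like genes 13 could be tested, and of these 3 rose, none fell (1 at an unadjusted p under 0.05) and 10 did not pass, with a median log2 fold change of 0.20. H2-T23, which encodes the nonclassical Qa-1 molecule read by natural killer cell receptors, was at 233, 238 and 268 CPM in SF1 cells and 184 and 201 CPM in WT cells (log2 fold change 0.36, SE 0.09, adjusted p = 0.0294). H2-M3, which presents formylated bacterial peptides, was at 95.9, 86.3 and 96.6 CPM in SF1 cells and 68.0 and 73.0 CPM in WT cells (log2 fold change 0.40, SE 0.10, adjusted p = 0.0233), and did not pass after GC and length correction (0.27, adjusted p = 0.0749). Fcgrt, the heavy chain of the neonatal Fc receptor, which also pairs with beta-2-microglobulin, was at 6.28, 6.31 and 9.28 CPM in SF1 cells and 2.82 and 2.51 CPM in WT cells (log2 fold change 1.44, adjusted p = 0.0114). The lipid-presenting gene Cd1d1 was at 79.5 ± 2.23 CPM in SF1 cells and 66.1 ± 0.106 CPM in WT and did not pass (adjusted p = 0.0751). None of this list passed without WT replicate 1, and 1 gene was higher without SF1 replicate 3. Higher calls numbered 2 without SF1 replicate 1, where 1 gene was also lower, and 2 without SF1 replicate 2. Adjusted p without WT replicate 1 was 0.185 for H2-T23, 0.159 for H2-M3 and 0.0621 for Fcgrt.

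Among 11 genes of peptide loading and trimming in the endoplasmic reticulum, 3 fell, none rose (0 at an unadjusted p under 0.05) and 8 did not pass, with a median log2 fold change of -0.01. Sec61a1, the channel subunit through which new proteins enter the endoplasmic reticulum, was at 269, 260.5 and 229.6 CPM in SF1 cells and 329 and 355 CPM in WT cells (log2 fold change -0.44, SE 0.09, adjusted p = 0.0126). It did not pass after GC and length correction (-0.23, adjusted p = 0.142) or without WT replicate 2 (adjusted p = 0.0528). Erap1, which trims peptides to the length that class I binds, was at 161, 149 and 141 CPM in SF1 cells and 217 and 176 CPM in WT cells (log2 fold change -0.39, adjusted p = 0.0372), and did not pass without WT replicate 1 (0.287), SF1 replicate 2 (0.107) or SF1 replicate 3 (0.118). The chaperone gene Canx, which encodes calnexin, was at 618, 648 and 546 CPM in SF1 cells and 770.0 and 723 CPM in WT cells (log2 fold change -0.31, adjusted p = 0.0432). That call was lost without any 1 of the 5 libraries (adjusted p from 0.0581 to 0.215). Tapbpl, a tapasin-related peptide editor, was at 54.7 ± 4.89 CPM in SF1 cells and 66.5 ± 4.75 CPM in WT cells (adjusted p = 0.127). In all, 2 genes of this list passed without SF1 replicate 1, and 1 gene passed when any other library was left out.

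Of the other proteasome genes, 1 passed. None of the 3 constitutive catalytic subunits and none of 11 other core subunits passed by edgeR or DESeq2 (0 and 1 at an unadjusted p under 0.05 by edgeR), and the median log2 fold change of those 11 was 0.06. Psma7, a core alpha subunit, had the smallest p of them (log2 fold change 0.19, adjusted p = 0.102) and passed once GC content and length were corrected for (0.31, adjusted p = 0.023). The core subunits with the next smallest p-values, Psmb1, Psmb2 and Psmb4, were also higher in each SF1 library than in either WT library, without passing (log2 fold changes 0.13, 0.13 and 0.18, adjusted p = 0.329, 0.278 and 0.183). In all, 5 of the 11 were separated upward in this way, as were 24.8% of all genes tested. Of 9 activators and assembly factors 1 rose, Psme4, which encodes the PA200 activator. It was at 47.8, 51.1 and 44.2 CPM in SF1 cells and 32.2 and 29.6 CPM in WT cells (log2 fold change 0.62, SE 0.12, adjusted p = 0.00834), and passed under all 15 alternatives. Psme1, which encodes a subunit of the interferon-inducible PA28 activator, was at 324 ± 3.59 CPM in SF1 cells and 293 ± 6.91 CPM in WT cells (adjusted p = 0.206).

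Cytosolic peptidases destroy or trim peptides before transport. Of 8 listed genes 2 fell, none rose (1 at an unadjusted p under 0.05) and 6 did not pass (median log2 fold change -0.14). The listed Lnpep, which encodes a membrane-bound peptidase and not a cytosolic one, was higher without passing (log2 fold change 0.28, adjusted p = 0.101). Thop1, thimet oligopeptidase, was at 45.3, 38.4 and 38.0 CPM in SF1 cells and 76.5 and 69.5 CPM in WT, 1.81-fold lower (log2 fold change -0.85, SE 0.12, adjusted p = 0.00216). After GC and length correction its log2 fold change was -0.48 (adjusted p = 0.0203), and with a replicate block added it was -0.41 and did not pass (0.07). Lap3, an interferon-inducible leucine aminopeptidase, was at 66.8, 70.6 and 68.7 CPM in SF1 cells and 89.1 and 88.3 CPM in WT cells (log2 fold change -0.37, adjusted p = 0.0224). The Lap3 call was lost without any 1 library (adjusted p from 0.0501 to 0.122), which left 1 gene of the list called except without SF1 replicate 2, where there were 2. Ide, the insulin-degrading enzyme, was at 224 ± 22.1 CPM in SF1 cells and 276 ± 12.6 CPM in WT cells (adjusted p = 0.0586), and passed as lower without SF1 replicate 2 (0.0488).

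Among 19 transcription regulators of class I genes 2 rose, none fell (1 at an unadjusted p under 0.05) and 17 did not pass (median log2 fold change 0.03). Irf8, a factor of dendritic cells, monocytes and B cells that is also among the dendritic cell markers, was at 1039, 1117 and 1319 CPM in SF1 cells and 575 and 663 CPM in WT cells (log2 fold change 0.90, SE 0.11, adjusted p = 0.0014). Nfkb1, whose product binds kappa B sites, was at 188, 186 and 199.9 CPM in SF1 cells and 149 and 158 CPM in WT cells (log2 fold change 0.32, adjusted p = 0.0287), which did not pass without SF1 replicates 2 or 3 (0.064 and 0.0954) or WT replicates 1 or 2 (0.175 and 0.0562). The list then held 1 higher gene. Irf1, the interferon-induced factor that binds class I promoters, was at 271 ± 6.27 CPM in SF1 cells and 235 ± 5.41 CPM in WT cells (adjusted p = 0.0921). After GC and length correction Irf1 passed as higher (log2 fold change 0.26, adjusted p = 0.0411). Creb1, which binds the cyclic AMP element, was at 115 ± 11.8 CPM in SF1 cells and 145 ± 19.98 CPM in WT cells (log2 fold change -0.33, adjusted p = 0.0841). Its log2 fold change was -0.18 without WT replicate 1 and -0.47 without WT replicate 2. It passed as lower after GC and length correction (-0.36, adjusted p = 0.0431). That correction gave 4 higher and 1 lower gene in the list, and 2 higher and 0 lower with a replicate block added.

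Of 7 genes of interferon receptors and their kinases, 1 rose, 2 fell and 4 did not pass (median log2 fold change -0.03). Ifnar2, a chain of the type I interferon receptor, was at 292, 311 and 316 CPM in SF1 cells and 228 and 235 CPM in WT cells (log2 fold change 0.40, SE 0.08, adjusted p = 0.00911; 0.0636 without WT replicate 1). The kinase gene Jak1, used by both interferon receptors, was at 414, 387 and 390.0 CPM in SF1 cells and 542 and 491 CPM in WT cells (log2 fold change -0.38, adjusted p = 0.0123). Leaving out SF1 replicate 2 gave an adjusted p of 0.0557 for it, and leaving out WT replicate 1 gave 0.0958. Tyk2, the partner kinase at the type I receptor, was at 90.7, 86.3 and 80.1 CPM in SF1 cells and 115 and 100.1 CPM in WT cells (log2 fold change -0.33, adjusted p = 0.0496). The Tyk2 call was lost with library totals in place of TMM (adjusted p = 0.0713), after GC and length correction (0.891) and without any 1 SF1 library or WT replicate 1 (0.0514, 0.113, 0.147 and 0.338). No gene of the list was lower without SF1 replicate 2 or without WT replicate 1, and 1 was lower without SF1 replicate 1 or SF1 replicate 3.

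Of 21 interferon-stimulated genes outside presentation that could be tested, 2 rose, 1 fell and 18 did not pass, with a median log2 fold change of -0.25 (2 higher and 7 lower at an unadjusted p under 0.05). Bst2, which encodes tetherin and also marks plasmacytoid dendritic cells, was at 109, 111 and 134 CPM in SF1 cells and 75.3 and 83.5 CPM in WT cells (log2 fold change 0.57, adjusted p = 0.0112; 0.0881 without WT replicate 1). The guanylate-binding gene Gbp3 was at 116, 115 and 112 CPM in SF1 cells and 85.9 and 94.4 CPM in WT cells (log2 fold change 0.34, adjusted p = 0.0274), which did not pass without SF1 replicate 1, 2 or 3 or WT replicate 1 (0.0556, 0.0744, 0.0691 and 0.196) or after GC and length correction (0.0523). Iigp1, an interferon-inducible GTPase of cell-autonomous defence, was at 24.04, 18.8 and 24.1 CPM in SF1 cells and 32.5 and 34.4 CPM in WT cells (log2 fold change -0.58, adjusted p = 0.0249), lost without SF1 replicate 2 or 3 or WT replicate 1 or 2 (0.0675, 0.0528, 0.0932 and 0.0849). The list held 4 lower genes by limma voom, 6 with low counts kept, 3 with a replicate block and 1 by DESeq2. Usp18, a feedback inhibitor of type I interferon signalling, was at 41.9, 17.6 and 26.5 CPM in SF1 cells and 58.2 and 47.1 CPM in WT cells (adjusted p = 0.0612). Usp18 passed as lower under 6 of 15 alternatives, among them limma voom (adjusted p = 0.0228), the block (0.03) and GC and length correction (0.0496). By DESeq2 it did not pass (0.208). Without SF1 replicate 1 it passed as lower (log2 fold change -1.26, adjusted p = 0.00787) and 5 genes of the list were lower, whereas without WT replicate 1 none of the list passed. None was lower without SF1 replicates 2 or 3 or WT replicate 2, and 1 was higher without any 1 SF1 library.

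**Figure D5:**
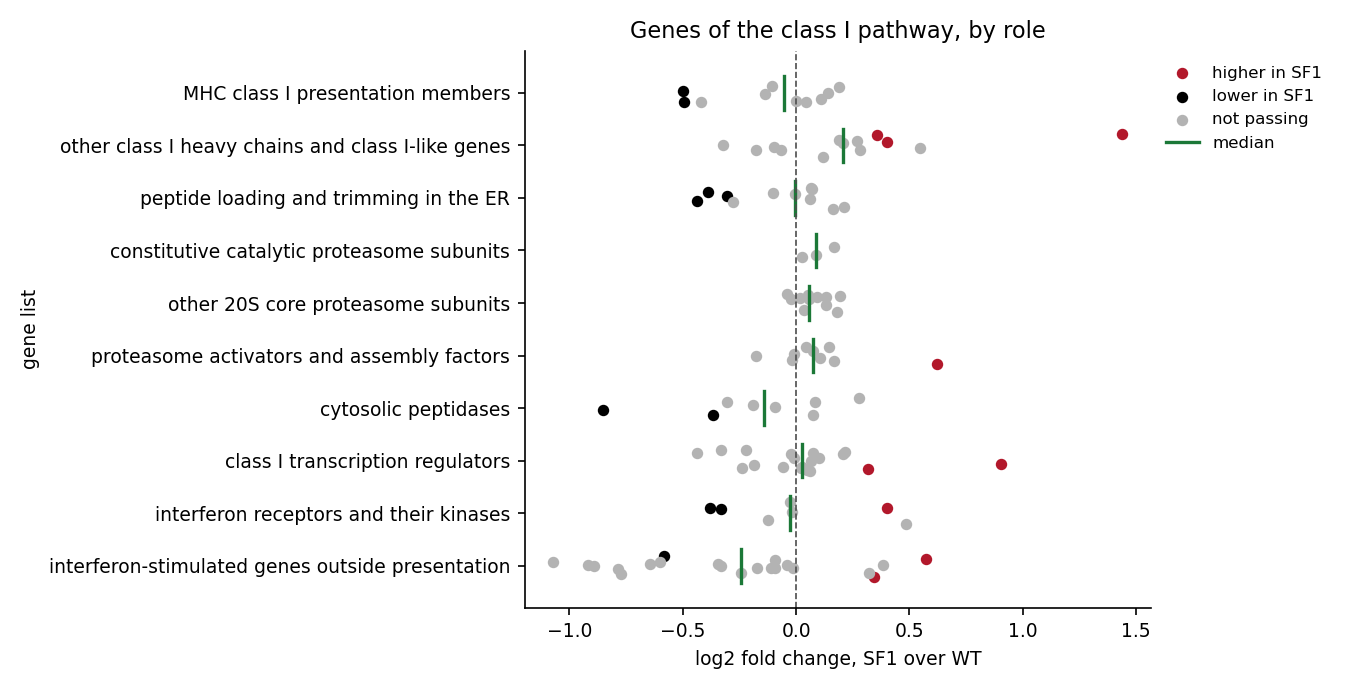
Log2 fold change of SF1 over WT for every measured gene of the 10 class I genes and of 9 lists of pathway genes by role, with genes higher (red), lower (black) or not passing (grey) at an adjusted p of 0.05 and list medians as green bars. Medians ran from -0.25 for interferon-stimulated genes to 0.20 for other class I heavy chains, and the core proteasome subunits lay close to 0.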

How the data were processed

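Gene expression was measured by RNA sequencing in 3 SF1 and 2 WT libraries of sorted CLPs. The authors deposited unnormalized whole-number counts for each gene. These come, per the submitters' processing notes, from FastQC, HISAT2 2.2.1 and featureCounts 2.0.1 with build GRCm38. The strand setting, annotation release and treatment of reads matching more than 1 place were not stated. Per the labels' protocols, cDNA was made with SMART-Seq v2 or v4 and Nextera XT, without molecular identifiers, so PCR copies count as reads. GENCODE M21 (GRCm38) gave symbols and places for 55227 of 55487 identifiers, and levels per kb use the length of its APPRIS principal mRNA.

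Genes were tested with edgeR 4.0.16 in R 4.3.3: TMM scaling, filterByExpr (minimum count 10), the quasi-likelihood F test without covariates, and Benjamini-Hochberg adjustment over 14423 genes (threshold 0.05). Fold changes are SF1 over WT, with an SE derived from F. Alternatives were other scalings, DESeq2 1.42.0, limma 3.58.1 voom with sample weights, other filters, thinning, a GC and length correction (loess), a replicate block and leaving out each library. The tests were checked on simulated counts. Libraries of a group differed beyond sampling noise (chi-square per degree of freedom 6.89 to 9.55). The members and lists were chosen with earlier results of these data known. Named are the members, up to 4 genes of each list with the smallest p, the constitutive subunits, Jak2, Il7r and Flt3; Gm20496, Gm15821 and marker genes without counts were named after their values were seen. Promoters are RefSeq windows; 8 of the 10 members matched. A further motif that was searched is not reported here.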

Additional observations from a re-analysis of the deposited data

How the results depend on the processing

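The number of genes called was 2382 as reported and between 986 (without WT replicate 1) and 2170 (without SF1 replicate 1) when 1 library was left out; it was 1519 with a replicate block and 1572 with that block and GC and length correction together. Of the 10 class I genes, 2 were called as reported, between 1 and 2 when 1 library was left out, and 0 with the GC and length correction, alone or with the block. With the correction alone 2 were lower at an unadjusted p under 0.05; with the block alone Tap1 and Tap2 kept their calls (adjusted p = 0.0161 and 0.0427). The replicate numbers were not taken to pair the libraries. Deviations from group means correlated at 0.0462 and 0.0615 over genes for numbers 1 and 2. The deviations of the 2 WT libraries mirror each other, so these values are not separate checks and cannot decide on a pairing. Of 150 values of the 10 genes under alternatives, 129 kept direction and side of the threshold, 7 lost a call, 3 gained one and 11 changed sign, none of the 11 at a passing p. Signs changed for B2m (-0.12 with GC and length correction, -0.10 with the block added, and -0.14 to 0.24 when 1 library was left out), Tapbp (0.032 with the correction and 0.0078 with the block added) and Psmb9 (-0.0052 with RLE scaling, -0.0047 by DESeq2, -0.016 with no filter, -0.0024 thinned, and -0.10 to 0.10 when 1 library was left out). They also changed for Psmb5 (-0.019 with the block, -0.10 and -0.13 with the correction alone and with the block, -0.041 to 0.11 when 1 library was left out), Psmb2 (-0.0044 with the correction) and Tyk2 (0.040 with the correction and block). For the 3 subunit ratios every alternative kept the sign, and leaving out 1 library moved the difference between 0.02 and 0.22 for Psmb8, -0.21 and -0.12 for Psmb9 and 0.02 and 0.18 for Psmb10. The causes were not tested. With 3 against 2 libraries small differences could go undetected: the widest 95% interval of a class I gene, that of Nlrc5, ran from -0.75 to -0.09 on the log2 scale.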
